A study of Meleagris gallopavo with 24 samples.

Results

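Genes of mitosis and cytokinesis were examined in the heart and liver of turkeys that had or had not received salinomycin (Sal), an ionophore that is fed to poultry against coccidia. The list held 60 entries, 19 of them Ensembl gene identifiers and the rest gene symbols, and an entry was kept where the deposited gene table had a row with that identifier or name. In this way 33 of the 11587 genes of the count table were found, 19 by identifier and 14 by symbol. The other 27 entries had no row of that name and were skipped. Of these, 10 (AURKA, BUB1, CDC20, CKAP2L, KIF2C, NCAPH, NUSAP1, PLK1, PRC1 and SPC25) lie over a row that carries no name in the table and are described with a separate list of other mitotic genes. The remaining 17, MKI67, AURKB, BIRC5 and NDC80 among them, were not analysed here. The identifiers and symbols were put together with earlier results of these birds known. The numbers of them that changed in heart or liver, their levels in control hearts and comparisons that use these are descriptions and not independent evidence.

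The Sal-exposed hearts and livers came from female birds given feed with 21 mg/kg Sal in weeks 12 to 13, an estimated daily dose of 0.9 mg/kg body weight. The control hearts and livers came from female birds of the same age whose feed in those weeks was made without Sal. All birds were raised 4 to a pen on Sal-free feed until then and were sampled in week 13. Sal was given in the feed, and the pen of each bird is not given. The tests took the birds of a group as independent, and an effect of pen cannot be told apart from that of Sal. Each of the 4 groups had 6 libraries, each from 1 bird, and liver control 3, a shallow library, was left out of the main comparisons, which leaves 5 liver controls. The paper describes 6 Sal-exposed and 6 control birds with heart and liver dissected from them, so hearts and livers share birds. The labels do not say which heart and which liver belong together. Both tissues are bulk samples, in which fewer dividing cells and less RNA per dividing cell cannot be told apart.

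Mitosis divides the copied chromosomes between the daughter cells, and cytokinesis then cuts the cell apart. Entry into mitosis is driven by CDK1 with its A and B cyclins, chromosomes are folded by condensin and untangled by topoisomerase II, spindle microtubules and their motor proteins attach to the kinetochores built on the centromeres, and the spindle checkpoint delays anaphase until every kinetochore is attached. The transcripts of most of these genes accumulate in G2 and mitosis, largely under the transcription factors FOXM1 and MYBL2, so that they are abundant in cycling cells and scarce in resting ones. In the heart and liver of a grown animal most parenchymal cells rest, while endothelial cells, fibroblasts and blood cells can go on dividing.

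Among the genes examined, CDK1, KNTC1 and ANLN were also taken by the study to RT-qPCR in heart. By RT-qPCR the study reports a significant fall for ANLN and names neither CDK1 nor KNTC1 as significant. It describes the RT-qPCR results of these genes as correlated with its RNA-seq. The primers it designed for them are shown because they mark the stretch of each transcript that was chosen for that second measurement. They are given 5′ to 3′, and the amplicons were 139 bp for CDK1, 70 bp for KNTC1 and 147 bp for ANLN.
CDK1 forward: caggccaagtggttgcaatg
CDK1 reverse: tgcataagaacatcctgaagacaga
KNTC1 forward: tggcttaggcatcaggcag
KNTC1 reverse: tggcattaagcaagctctcca
ANLN forward: cacccttcttactccagccat
ANLN reverse: tccccttcaaaattcatcttgtcca

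The heart libraries held 23372118 to 35979378 counts and the 11 liver libraries used held 15706646 to 31305782, against 3729229 in liver control 3. Genes of the mitochondrial genome took 48.3% to 86.9% of the counts in Sal-exposed hearts and 58.5% to 84.4% in control hearts, with more than 80% in Sal 3, Sal 4 and control 2. The 33 genes together had 837 to 1695 counts in a Sal-exposed heart, 3613 to 10293 in a control heart, 594 to 1290 in a Sal-exposed liver and 691 to 3313 in a control liver. Single genes of the list therefore rest on few reads, most of all in liver. Levels are given as CPM, the count of a gene per 1 M counts of the library (M for mega) after TMM scaling within the tissue. The markers fitted the labels, since 7 cardiomyocyte genes summed to at least 12219 CPM in every heart and at most 34.5 CPM in every liver used, while 9 hepatocyte genes summed to at least 175910 CPM in every liver used and at most 69.3 CPM in every heart.

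In heart the mitotic genes were lower in Sal-exposed birds across all roles. The 33 genes summed to 52.7 ± 21.6 CPM in Sal-exposed hearts and 215.7 ± 37.5 CPM in control hearts (SD, n = 6 each), so that control hearts held 4.09 times as much. The sums of the groups did not overlap, with 33.5 to 94.4 CPM in Sal-exposed hearts against 182.9 to 279.8 CPM in control hearts. CENPF, ASPM, ANLN and KIF4A fell furthest, by 3.60, 3.24, 3.19 and 3.17 on the log2 scale.

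All genes of a tissue were tested together by quasi-likelihood in edgeR. A gene was called at a Benjamini-Hochberg adjusted p of at most 0.05 and a log2 fold change of at least 1 in size. Of the 33 genes, 32 passed the filter on low counts in heart, 25 were called lower and 0 higher. Among all 10265 genes tested in heart, 0.896% were called lower and 0.0974% higher. All 32 had a log2 fold change below 0, with a median of -2.27 against 0.01 over all genes tested, and all 32 had an unadjusted p under 0.05. DESeq2 called 30 of them and limma-voom 31, again all lower. For 25 of the 32 every Sal-exposed heart lay below every control heart, which held for 1.81% of all genes tested. The genes entered by identifier had 18 of 19 called, and those entered by symbol 7 of 13. With 1 library left out, 21 (without control 6) to 28 (without Sal 4) were called, and without the 3 libraries of over 80% mitochondrial counts, a setting chosen after seeing the data, 30 were called.

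**Figure D1:**
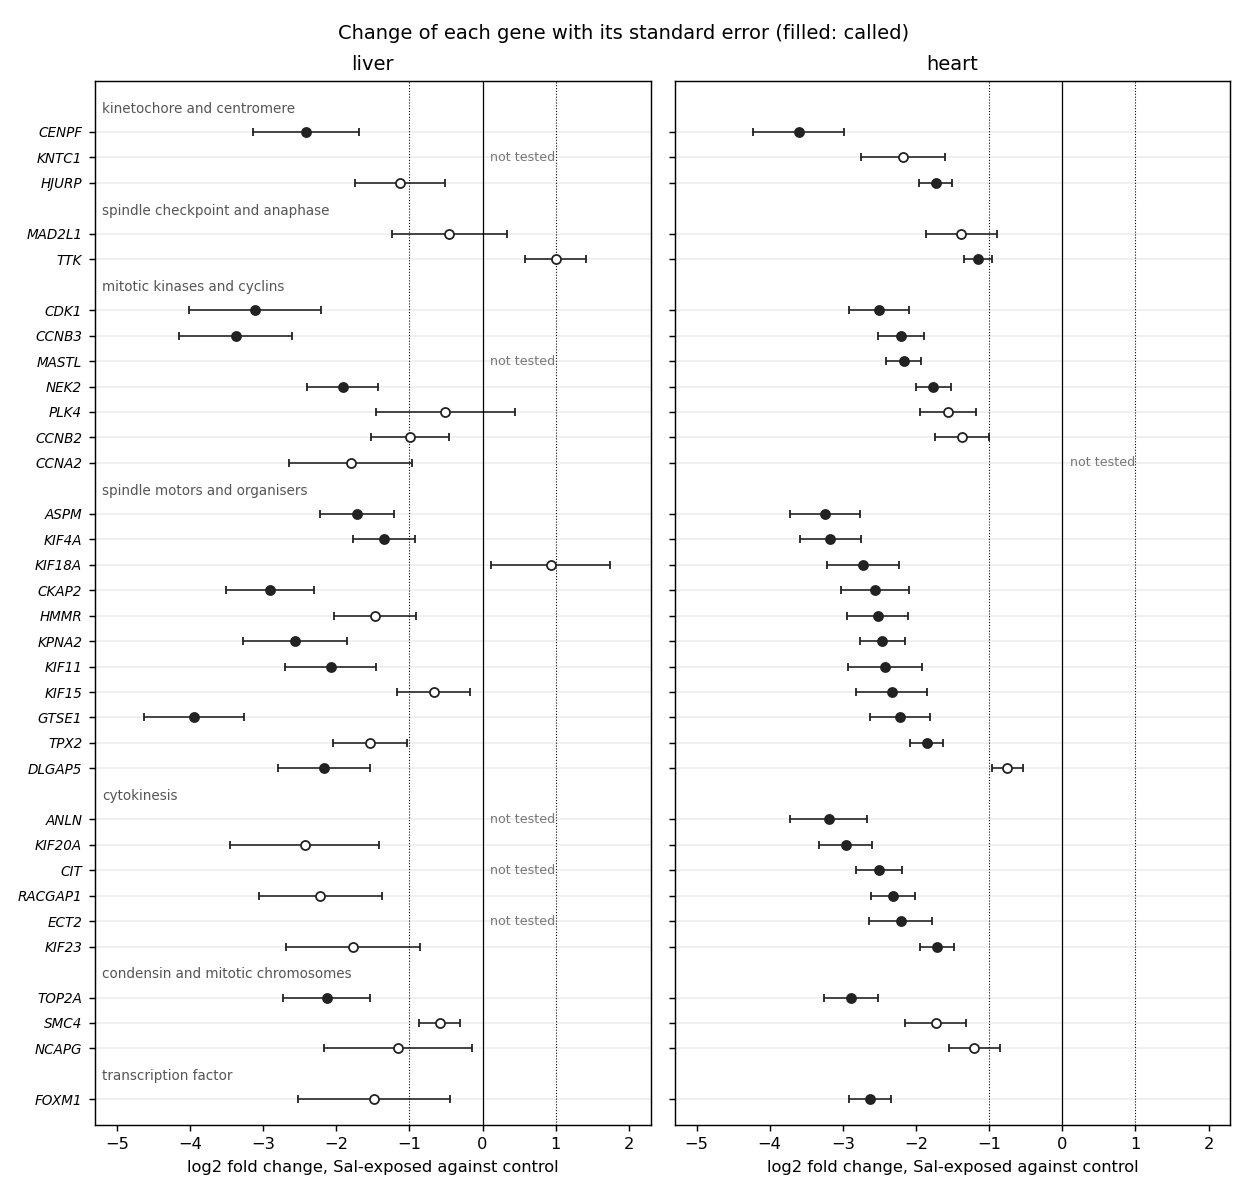
Log2 fold change of each of the 33 genes in Sal-exposed against control birds, in liver on the left and heart on the right, with its standard error and grouped by role. Filled points were called, dotted lines mark a log2 fold change of 1 in either direction, and all 32 genes tested in heart lie below 0, as do 26 of the 28 tested in liver.

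The kinetochore and centromere group held CENPF, a large protein of the outer kinetochore, KNTC1, a subunit of the complex that brings checkpoint proteins to the kinetochore, and HJURP, the chaperone that places the centromeric histone. CENPF (chromosome 2, 20025945 to 20062377 on Turkey_5.1) had a lowest, median and highest level of 0, 0.333 and 1.85 CPM in Sal-exposed hearts, against 4.47, 5.89 and 9.57 CPM in control hearts. The groups were far apart, and the highest Sal-exposed heart, Sal 4, was the only one above 1 CPM. The log2 fold change was -3.60 (SE 0.62, edgeR adjusted p 0.0106). KNTC1 (chromosome 17, 5981487 to 6014078) had 0, 0.191 and 0.740 CPM in Sal-exposed hearts, against 0.835, 1.23 and 2.18 CPM in control hearts. The groups of KNTC1 did not overlap either, but its log2 fold change of -2.18 (SE 0.57) had an edgeR adjusted p of 0.0919 and was not called. It was called without Sal 4, with DESeq2 and with limma-voom, at levels that amount to few reads per library. HJURP was lower and called, at -1.73 (SE 0.22, edgeR adjusted p 0.00157).

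Of the checkpoint genes, TTK encodes the kinase that starts checkpoint signalling and MAD2L1 the protein that inhibits the anaphase-promoting complex. TTK (chromosome 2, 78167314 to 78192815) had 2.38, 3.64 and 4.46 CPM as its lowest, median and highest level in Sal-exposed hearts, against 6.64, 7.73 and 10.1 CPM in control hearts. Each Sal-exposed heart lay below each control heart, and TTK fell by 1.15 on the log2 scale (SE 0.19, edgeR adjusted p 0.00808). MAD2L1 (chromosome 4, 33918208 to 33921548) had 0.434, 0.698 and 2.26 CPM in Sal-exposed hearts, against 0.644, 2.28 and 5.40 CPM in control hearts. Its groups overlapped, since Sal 1 was at 2.26 CPM and control 2 at 0.644 CPM. It was not called by edgeR (-1.38, SE 0.49, edgeR adjusted p 0.195) or DESeq2, but limma-voom called it lower.

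The mitotic kinases and cyclins were CDK1 and its partners CCNA2, CCNB2 and CCNB3, MASTL, which blocks the phosphatase that opposes CDK1, NEK2, which separates the centrosomes, and PLK4, which sets the number of centrioles. CDK1 (chromosome 8, 8972877 to 8979755) had 0.485, 1.47 and 3.33 CPM in Sal-exposed hearts, against 5.58, 8.70 and 16.9 CPM in control hearts. The ranges were apart, with Sal 1 the highest of the Sal-exposed hearts and control 3 the highest of the controls. CDK1 fell by 2.50 on the log2 scale (SE 0.41, edgeR adjusted p 0.00735). CCNB3 (chromosome 9, 1193883 to 1196615), whose model overlaps that of DGKK by 465 bp, had 0.817, 1.11 and 2.50 CPM in Sal-exposed hearts, against 3.65, 6.50 and 9.48 CPM in control hearts. It fell by 2.20 (SE 0.31, edgeR adjusted p 0.00271), again with no overlap between groups. CCNB2 (chromosome 12, 4547309 to 4552956) had 2.07, 3.12 and 8.44 CPM in Sal-exposed hearts, against 7.09, 9.98 and 19.6 CPM in control hearts. Here Sal 1, at 8.44 CPM, reached into the range of the controls, and CCNB2 was not called by edgeR (-1.37, SE 0.37, edgeR adjusted p 0.0987). DESeq2 and limma-voom called CCNB2 lower. MASTL (-2.17, edgeR adjusted p 0.000735) and NEK2 (-1.76, edgeR adjusted p 0.00191) were called lower. PLK4 had a log2 fold change of -1.56 and an edgeR adjusted p of 0.0696, and was called lower by DESeq2 and limma-voom. CCNA2 had no count in any of the 6 Sal-exposed hearts and 0 to 0.881 CPM in the control hearts, and did not pass the filter. Its model lies wholly within that of BBS7.

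The largest role group was that of spindle motors and organisers, with 11 genes, of which 10 were called lower. KIF4A, KIF11, KIF15 and KIF18A are kinesin motors that order chromosomes and spindle microtubules, ASPM, TPX2, HMMR, CKAP2, DLGAP5 and GTSE1 are microtubule-binding proteins of the spindle, and KPNA2 is an importin that binds spindle factors. ASPM (chromosome 10, 8850689 to 8878033) had 0.202, 0.527 and 2.53 CPM in Sal-exposed hearts, against 6.12, 7.54 and 10.7 CPM in control hearts. The highest Sal-exposed heart was again Sal 4, still below every control, and ASPM fell by 3.24 (SE 0.48, edgeR adjusted p 0.00327). GTSE1 (chromosome 1, 10037426 to 10048512) had 0.10, 0.659 and 1.36 CPM in Sal-exposed hearts, against 2.10, 2.97 and 5.03 CPM in control hearts. It was called (-2.22, SE 0.41, edgeR adjusted p 0.0160), but not without Sal 2 or control 6. DLGAP5 (chromosome 5, 55447936 to 55482477) had the smallest change of all 32 genes. Its levels were 6.71, 8.86 and 16.6 CPM in Sal-exposed hearts, against 13.3, 16.3 and 19.1 CPM in control hearts, and Sal 4 lay among the controls. It was not called (-0.75, SE 0.21, edgeR adjusted p 0.116), and its model holds the whole model of LGALS3, a galectin gene of many cell types, so that its counts cannot be assigned to DLGAP5 alone where the use of strand is unknown. The other 8 genes of the group were called lower, with log2 fold changes of -3.17 (KIF4A) to -1.86 (TPX2). Of these, the groups overlapped only for KIF11 (-2.42, edgeR adjusted p 0.0330), and with 1 library left out KIF11 kept its call only without Sal 1, Sal 4 or control 3. KIF15 (-2.33, edgeR adjusted p 0.0326) kept its call only without Sal 1, Sal 2, Sal 3, Sal 4 or control 3.

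All 6 cytokinesis genes were called lower in heart. ANLN, the scaffold of the contractile ring, ECT2 and RACGAP1, which switch RhoA on and off at the cleavage plane, KIF23 and KIF20A, kinesins of the central spindle, and CIT, a kinase of the midbody, make up this group. ANLN (chromosome 6, 45333707 to 45360487) had 0.0594, 1.49 and 2.22 CPM in Sal-exposed hearts, against 7.85, 10.6 and 16.5 CPM in control hearts. No Sal-exposed heart came near a control, and ANLN fell by 3.19 (SE 0.53, edgeR adjusted p 0.00763). KIF20A (chromosome 15, 9301206 to 9309981) had 0.400, 1.36 and 2.47 CPM in Sal-exposed hearts, against 7.43, 9.17 and 13.4 CPM in control hearts, and fell by 2.96 (SE 0.36, edgeR adjusted p 0.00157). KIF23 (chromosome 12, 18595525 to 18624796) had 1.72, 3.02 and 4.43 CPM in Sal-exposed hearts, against 8.62, 10.1 and 12.3 CPM in control hearts, and fell by 1.72 (SE 0.23, edgeR adjusted p 0.00182). The ranges of both kinesins were apart. RACGAP1, whose model lies wholly within that of GPD1, and CIT had log2 fold changes of -2.32 and -2.51, both with an edgeR adjusted p of 0.00157. ECT2 (-2.21, edgeR adjusted p 0.0232) had overlapping groups and lost its call without Sal 2, Sal 5, Sal 6, control 1 or control 6.

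Of the 3 genes of mitotic chromosomes, edgeR called TOP2A, the topoisomerase that untangles sister DNA, and not the condensin subunits SMC4 and NCAPG. DESeq2 and limma-voom called SMC4 and NCAPG lower as well. TOP2A (chromosome 29, 4296223 to 4312659) had 0.734, 1.31 and 3.82 CPM in Sal-exposed hearts, against 7.62, 11.6 and 16.8 CPM in control hearts, and its groups did not overlap. It fell by 2.88 (SE 0.37, edgeR adjusted p 0.00157). SMC4 (chromosome 11, 21863257 to 21894771) had 1.72, 3.16 and 10.4 CPM in Sal-exposed hearts, against 10.5, 14.8 and 23.5 CPM in control hearts. Its groups just missed each other, with Sal 4 at 10.4 CPM and control 3 at 10.5 CPM, and the log2 fold change of -1.73 (SE 0.42) had an edgeR adjusted p of 0.0673. With edgeR it was called without Sal 3 or without Sal 4. NCAPG was at -1.20 (SE 0.35, edgeR adjusted p 0.125). The transcription factor FOXM1 (chromosome 1, 74119518 to 74126908) had 0.334, 0.542 and 0.986 CPM in Sal-exposed hearts, against 2.74, 3.67 and 5.70 CPM in control hearts. It fell by 2.63 (SE 0.29, edgeR adjusted p 0.000735), with every Sal-exposed heart below 1 CPM.

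**Figure D2:**
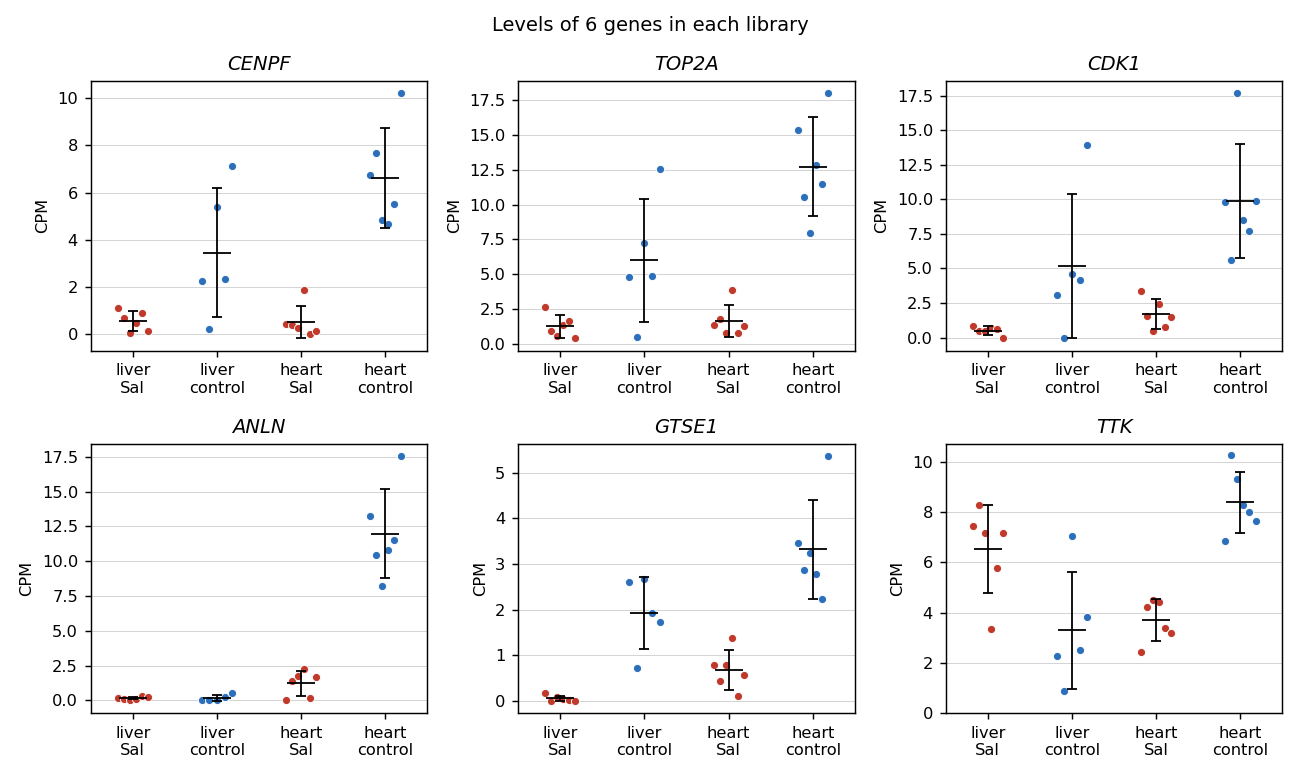
CPM of CENPF, TOP2A, CDK1, ANLN, GTSE1 and TTK in each library on a scale common to the tissues, with 1 point per library and the mean with its SD in black, for 6 libraries per group and 5 liver controls. In heart the Sal-exposed points lie below all control points for the 6 genes, while in liver the groups overlap for all but GTSE1 and TTK has its higher mean in the Sal-exposed group.

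The Sal-exposed hearts were not alike in these genes. Sal 4, with 86.9% mitochondrial counts, had the highest level of the 6 Sal-exposed hearts for 19 of the 33 genes and a sum of 94.4 CPM, while the other 5 had 33.5 to 54.2 CPM. Sal 5, with the lowest sum, was lowest for 13 genes. Among the controls, control 6 was highest for 23 genes. Without Sal 3, Sal 4 and control 2 the sums were 41.9 ± 6.66 CPM (SD, n = 4) in Sal-exposed hearts and 220.1 ± 40.20 CPM (SD, n = 5) in control hearts, a ratio of control to Sal of 5.25. Relative to nuclear counts alone, the 33 genes took 69.3 to 362 counts per 1 M in Sal-exposed hearts and 592 to 1137 in control hearts, so that the groups were apart on this scale as well. Across the 32 genes the deviation from the group mean had a Spearman's rho with genomic span of -0.48 in Sal 1 and -0.63 in control 3, and over all genes tested it was -0.38 and -0.34 in the same libraries. In control 2 it was 0.70 over the 32 genes and 0.22 over all genes. In the other 9 hearts, control 6 (0.05) and Sal 4 (0.24) included, it lay between -0.24 and 0.35 over the 32 genes. Over all genes tested it was -0.35 in Sal 5 and 0.33 in both Sal 3 and Sal 4. Genomic span contains introns and the genes share their libraries, so these are descriptions, and the part of this trend in the single levels was not tested. The log2 fold changes themselves had a rho of -0.13 with span over the 32 genes and -0.34 over all genes tested.

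In liver fewer of the genes were called, and the control livers differed widely. The 33 genes summed to 35.4 ± 9.91 CPM (SD, n = 6) in Sal-exposed livers and 94.0 ± 56.9 CPM (SD, n = 5) in control livers, a ratio of control to Sal of 2.66. The sums were 24.8 to 53.5 CPM in Sal-exposed livers, against 69.3, 32.8, 95.1, 86.5 and 186 CPM in controls 1, 2, 4, 5 and 6. Control 2 thus lay within the Sal-exposed range, whereas control 6 had the highest level among the controls for 22 of the 33 genes. In the paper's quality report every Sal-exposed liver had a higher share of uniquely aligned reads than every control liver used. Control 6 had the lowest share. The part of this in the liver comparison was not tested and cannot be told apart from that of Sal. Among the Sal-exposed livers Sal 1 was highest for 17 genes and Sal 6 lowest for 14. Controls 2 and 4, with 26818730 and 27338051 counts, had a count for 9563 and 9268 genes of the whole table. These were the fewest of the liver libraries used, against 10918 to 11350 genes in Sal-exposed livers. Of the 33 genes, 23 and 26 had a count in controls 2 and 4. The part of this in the zeros of these controls below was not tested.

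Of the 33 genes, 28 passed the filter in liver, 12 were called lower and 0 higher by edgeR, against 3.08% lower and 5.24% higher among the 10269 genes tested. The 28 genes had a median log2 fold change of -1.74, against 0.03 over all genes tested, and 26 were below 0. At an unadjusted p under 0.05 there were 17 lower and 1 higher. DESeq2 called 15 lower and 0 higher, and limma-voom 12 lower and 1 higher. By edgeR the genes entered by identifier had 10 of 15 called, with a median of -2.13. Those entered by symbol had 2 of 13 called (CKAP2 and DLGAP5), with a median of -0.995. The groups did not overlap, with Sal-exposed livers lower, for 4 genes (GTSE1, KIF11, NEK2 and CCNA2), where 3.46% of all genes tested showed this. Only GTSE1, CCNB3, NEK2 and CKAP2 were called with each library left out in turn. The other 8 each lost the call in at least 5 of the 11 such fits, and the number called was 4 without Sal 2, Sal 3 or control 6, 5 without Sal 4, Sal 5 or control 5, 7 without Sal 6 and 16 without control 2. With liver control 3 included 1 gene was called (CKAP2), and with library size alone as the scaling 5 were.

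GTSE1 had the largest change in liver. Its lowest, median and highest level was 0, 0.0357 and 0.167 CPM in Sal-exposed livers, against 2.70, 0.759, 2.74, 1.98 and 1.74 CPM in controls 1, 2, 4, 5 and 6. All controls lay above all Sal-exposed livers, and GTSE1 fell by 3.94 on the log2 scale (SE 0.69, edgeR adjusted p 0.00327). CCNB3 had 0, 0.263 and 0.960 CPM in Sal-exposed livers, against 0.702, 2.23, 2.93, 5.21 and 11.6 CPM in the same controls. Control 1 lay within the Sal-exposed range, and CCNB3 fell by 3.37 (SE 0.77, edgeR adjusted p 0.0119). CDK1 had 0, 0.572 and 0.919 CPM in Sal-exposed livers, against 3.18, 0, 4.75, 4.33 and 14.1 CPM in controls. Control 2 had no count of CDK1 and the other 4 controls were above every Sal-exposed liver. Its log2 fold change was -3.11 (SE 0.90, edgeR adjusted p 0.0342), and the call was lost without Sal 1, Sal 2, Sal 3, Sal 4, Sal 5, control 5 or control 6. CKAP2 (-2.91, SE 0.59, edgeR adjusted p 0.00726) and NEK2 (-1.91, SE 0.49, edgeR adjusted p 0.0195) were the other genes called in every such fit.

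CENPF had 0.0836, 0.613 and 1.17 CPM in Sal-exposed livers, against 2.33, 0.237, 5.52, 2.44 and 7.20 CPM in controls 1, 2, 4, 5 and 6. It was called (-2.41, SE 0.73, edgeR adjusted p 0.0374) but not without Sal 2, Sal 3, Sal 4, Sal 5, Sal 6, control 4, control 5 or control 6. TOP2A had 0.429, 1.20 and 2.80 CPM in Sal-exposed livers, against 4.95, 0.569, 7.44, 5.03 and 12.7 CPM in controls. Control 2 was again the exception among controls that were otherwise above the Sal-exposed range. TOP2A was called (-2.13, SE 0.60, edgeR adjusted p 0.0292) but not without Sal 2, Sal 3, Sal 4, Sal 6, control 5 or control 6. ASPM had 0.546, 1.77 and 2.52 CPM in Sal-exposed livers, against 4.32, 2.89, 2.21, 4.98 and 13.6 CPM in controls. Its call (-1.72, SE 0.51, edgeR adjusted p 0.0358) was lost without Sal 2, Sal 3, Sal 4, Sal 5, Sal 6, control 5 or control 6. DLGAP5, which was not called in heart, had 0.195, 0.831 and 2.84 CPM in Sal-exposed livers, against 1.77, 1.52, 7.49, 4.66 and 10 CPM in controls, and was called at -2.17 (SE 0.63, edgeR adjusted p 0.0336). It lost the call without Sal 2, Sal 3, Sal 4, Sal 5, Sal 6, control 4, control 5 or control 6. As in heart, its counts cannot be assigned to DLGAP5 alone, since its model holds that of LGALS3. KPNA2 (-2.56, edgeR adjusted p 0.0271), KIF11 (-2.08, edgeR adjusted p 0.0372) and KIF4A (-1.35, edgeR adjusted p 0.0466) were the remaining genes called. KPNA2 lost its call without Sal 2, Sal 3, Sal 4, Sal 5 or control 6, and KIF11 without Sal 1, Sal 2, Sal 3, Sal 5, control 5 or control 6, while KIF4A kept it only without control 1 or control 2.

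None of the cytokinesis genes was called by edgeR in liver, and 3 of the 6 passed the filter. KIF20A had 0.0780, 0.283 and 0.752 CPM in Sal-exposed livers, against 3.36, 0, 0, 3.64 and 4.78 CPM in controls 1, 2, 4, 5 and 6. Controls 2 and 4 had no count and the other 3 lay above every Sal-exposed liver, and KIF20A was not called (-2.43, SE 1.01, edgeR adjusted p 0.117). Controls 2 and 4 also had counts for the fewest genes of the liver libraries used. KIF23 had 0.439, 0.806 and 1.5 CPM in Sal-exposed livers, against 5.13, 0.0474, 0, 4.06 and 7.82 CPM in controls, with the same controls high and low (-1.77, SE 0.92, edgeR adjusted p 0.209). RACGAP1 (-2.22, SE 0.84, edgeR adjusted p 0.0901) was called without control 2 and with DESeq2, and KIF20A without control 2 or control 4. ANLN had 0.0418, 0.172 and 0.316 CPM in Sal-exposed livers, against 0, 0, 0.0480, 0.277 and 0.506 CPM in controls, at most 12 counts in a library. It did not pass the filter in liver, nor did KNTC1, MASTL, CIT and ECT2. KNTC1 had 0.0418, 0.288 and 0.366 CPM in Sal-exposed livers, against 0, 0.380, 0, 0 and 0.113 CPM in controls.

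TTK and KIF18A were the genes with a log2 fold change above 0 in liver. TTK had 3.51, 7.49 and 8.66 CPM in Sal-exposed livers, against 2.36, 0.949, 7.20, 2.58 and 3.88 CPM in controls. Its groups overlapped, since Sal 4 lay below controls 4 and 6, and it was not called (1.00, SE 0.41, edgeR adjusted p 0.115), though limma-voom called it and so did edgeR without control 4. KIF18A was at 0.93 (SE 0.81, edgeR adjusted p 0.470) and was not called. Sal 2 had 5.45 CPM of KIF18A. The other Sal-exposed livers had 0.579 to 1.56 CPM, against 0 to 1.58 CPM in controls. With 1 library left out the log2 fold change of KIF18A ran from 0.14 to 1.23. DESeq2 with surrogate variables, the approach of the authors, called TTK and KIF18A higher. The remaining genes described per library were not called in liver. MAD2L1 had 0.390, 0.595 and 1.00 CPM in Sal-exposed livers, against 0.185, 0, 1.87, 1.15 and 1.35 CPM in controls (-0.45, edgeR adjusted p 0.740). CCNB2 had 0.920, 1.95 and 3.34 CPM in Sal-exposed livers, against 2.51, 1.23, 1.25, 5.67 and 10.5 CPM in controls (-0.995, edgeR adjusted p 0.225). For both the groups overlapped. SMC4 had 3.77, 5.22 and 9.6 CPM in Sal-exposed livers, against 8.27, 6.07, 11.2, 8.81 and 8.10 CPM in controls (-0.59, edgeR adjusted p 0.170). FOXM1 had 0, 0.275 and 0.835 CPM in Sal-exposed livers, against 1.18, 0, 0, 0.692 and 3.21 CPM in controls (-1.49, edgeR adjusted p 0.357). Only controls 1 and 6 lay above the Sal-exposed range of FOXM1, and controls 2 and 4 had no count.

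Some markers of enterocytes, endothelial cells, leukocytes and cardiomyocytes were called in liver, where 3.08% of all genes tested were called lower and 5.24% higher. Of 8 enterocyte genes, 6 were called lower in Sal-exposed livers, and the 8 summed to 403.5 to 669 CPM in Sal-exposed livers, against 9692, 4447, 2165, 7532 and 19357 CPM in controls 1, 2, 4, 5 and 6. Control 6 had the highest sum of the enterocyte genes as well as of the mitotic genes, but 19183 of its 19357 CPM came from APOA4, an apolipoprotein gene. Without APOA4 the sum was 147 to 248 CPM in Sal-exposed livers, against 5453, 170, 195, 1198 and 174 CPM in the same controls. Controls 2, 4 and 6 thus lay within the Sal-exposed range, and only controls 1 and 5 lay above it. Endothelial genes had 2 of 6 called higher (PECAM1 and TIE1), with a sum of 71.1 to 109.7 CPM in Sal-exposed livers against 31.6 to 62.1 CPM in controls. Of 9 leukocyte genes 1 (CSF1R) was called higher, with sums of 473 to 865 CPM in Sal-exposed livers against 259 to 793 CPM in controls. Of 5 cardiomyocyte genes tested 1 (MYL2) was called higher, with sums over 7 genes of 5.84 to 34.5 CPM in Sal-exposed livers against 0.144 to 12.1 CPM in controls. No hepatocyte, fibroblast, adipocyte or erythroid gene was called in liver by edgeR, DESeq2 or limma-voom. At an unadjusted p under 0.05, 2 hepatocyte genes were higher. The marker calls depended on the tool. DESeq2 with surrogate variables called 1 of 2 erythroid, 5 of 5 cardiomyocyte, 4 of 6 endothelial and 3 of 9 leukocyte genes higher. Of the 8 enterocyte genes DESeq2 called 8 lower and limma-voom 3. The part of these cells in the changes of the mitotic genes was not tested. In heart edgeR called no gene of the 8 marker lists. Of their 46 tested genes, 2 were lower and 3 higher at an unadjusted p under 0.05, limma-voom called 1 and DESeq2 none. With surrogate variables DESeq2 called 1 endothelial gene higher and 1 enterocyte gene lower. Leukocyte genes summed to 191 to 525 CPM in Sal-exposed hearts and 174 to 317 CPM in control hearts. Endothelial genes summed to 181 to 359 CPM in Sal-exposed and 234 to 313 CPM in control hearts. Fibroblast genes summed to 152 to 350 CPM in Sal-exposed and 224 to 396 CPM in control hearts. Cardiomyocyte genes summed to 13470 to 86146 CPM in Sal-exposed hearts, with Sal 1 highest. In control hearts they summed to 12219 to 30172 CPM, with control 3 highest. The part of these cells in the mitotic genes of heart was not tested.

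Both tissues had a test for 27 of the genes, and 11 were called lower in heart and in liver, which is 44.0% of the 25 called in heart and 91.7% of the 12 called in liver. Of the 9484 genes tested in both tissues, 13 were called lower in both, or 0.137%. The 11 genes of the list were ASPM, CCNB3, CDK1, CENPF, CKAP2, GTSE1, KIF11, KIF4A, KPNA2, NEK2 and TOP2A. A term for tissue and treatment together, in 1 edgeR fit over 23 libraries, tested whether the log2 fold change in liver differed from that in heart. This fit, also used below for liver against heart, took the libraries as independent, although hearts and livers came from the same birds. Of the 33 genes, 6 were called with a higher log2 fold change in liver than in heart and 1 with a lower one, where 9.46% and 7.0% of the 11158 genes tested were called in these directions. With the library number taken as the bird, 4 were called, all higher (ANLN, KIF4A, MASTL and TTK), where 714 of the 11158 genes were called higher. The first count includes ANLN, MASTL and KNTC1, and the second ANLN and MASTL. These genes did not pass the filter of the liver fit and entered this fit through their levels in heart. A fall in heart alone puts their difference above 0, so the counts cannot be weighed against the shares over all genes. The median difference was 0.86 over the 33 genes, 0.81 without CCNA2, which had no count in any Sal-exposed heart, and 0.05 over all genes tested.

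TTK had the smallest adjusted p, with a difference of 2.13 (SE 0.46, edgeR adjusted p 0.00405), with a log2 fold change of 1.00 in liver and -1.15 in heart. KIF18A differed by 3.61 (SE 0.94, edgeR adjusted p 0.0114), with 0.93 in liver and -2.72 in heart. Its levels were 0.579 to 5.45 CPM in Sal-exposed livers and 0 to 1.58 CPM in control livers, and 0 to 0.185 CPM in Sal-exposed hearts and 0.407 to 2.04 CPM in control hearts. MASTL (3.19, edgeR adjusted p 0.0108), ANLN (3.31, edgeR adjusted p 0.0242) and KNTC1 (2.95, edgeR adjusted p 0.0467) were below the controls in every Sal-exposed heart and did not pass the filter of the liver fit. In liver MASTL had 0.125 to 1.05 CPM in the Sal-exposed group and 0 to 0.665 CPM in the controls, and ANLN and KNTC1 had at most 0.506 CPM in any library used. A fall like that in heart could hardly show from such levels. KIF4A differed by 1.79 (edgeR adjusted p 0.0319), being called lower in both tissues, and GTSE1 by -1.82 (SE 0.52, edgeR adjusted p 0.0197), with the larger fall in liver. With 1 of the 23 libraries left out, TTK, KIF18A, MASTL and GTSE1 were called every time. KIF4A lost the call without heart control 1, heart control 6, liver Sal 2 or liver control 5, ANLN without liver Sal 5, and KNTC1 kept it only without heart Sal 3, heart Sal 4, heart control 3, liver Sal 1, liver Sal 3 or liver control 2. GTSE1 was not called with library size alone, with liver control 3 included or without the 3 hearts of over 80% mitochondrial counts.

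**Figure D3:**
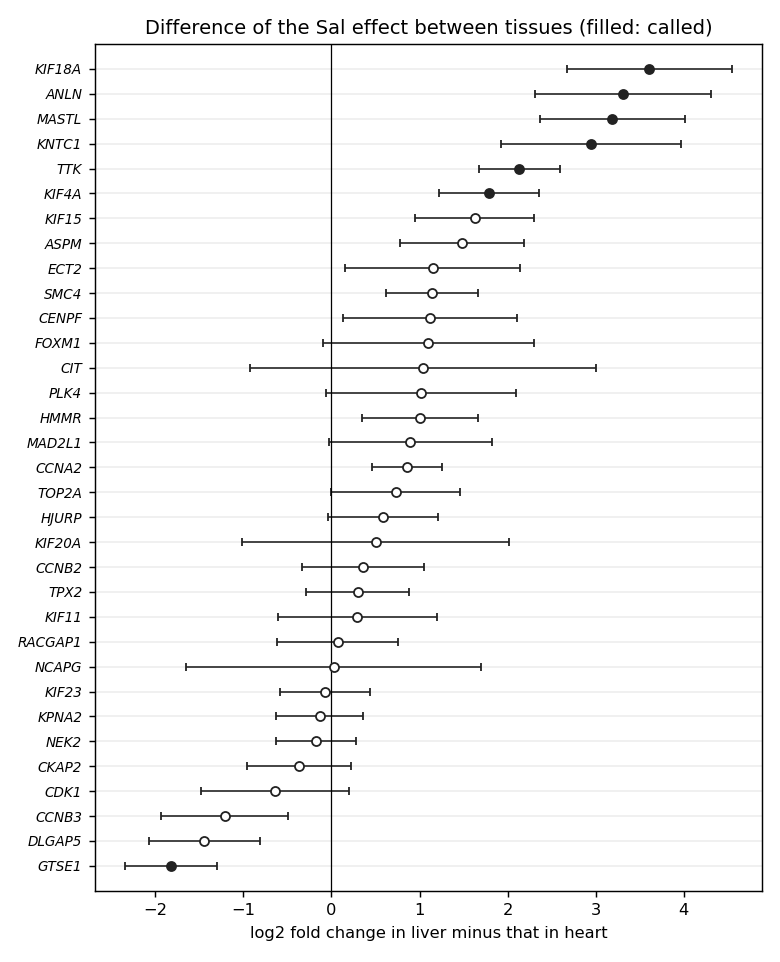
Log2 fold change of Sal-exposed against control in liver minus that in heart for the 33 genes, with its standard error, sorted by size. Filled points were called: KIF18A, ANLN, MASTL, KNTC1, TTK and KIF4A on the right of 0 and GTSE1 on the left. The value of CCNA2 depends on the prior count, since it had no count in any Sal-exposed heart. ANLN, MASTL and KNTC1 did not pass the filter of the liver fit, where their levels were very low in both groups.

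The control hearts had the highest mean of the 4 groups for 30 of the 33 genes, and 16 genes had the order of the summed level throughout. The list was put together with earlier results of these birds known, so these counts and those of liver against heart below are descriptions. On the common scale of both tissues the 33 genes summed to 33.7 ± 9.33 CPM in Sal-exposed livers (SD, n = 6), 54.2 ± 21.7 CPM in Sal-exposed hearts (SD, n = 6), 91.8 ± 56.7 CPM in control livers (SD, n = 5) and 225.2 ± 41.62 CPM in control hearts (SD, n = 6). Neighbours in this order overlapped in their ranges up to the control livers, and only the control hearts, at 190.9 CPM and above, stood apart from the highest control liver at 184 CPM.

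In control birds 17 of the 33 genes were called by edgeR, all lower in liver than in heart, where 24.0% of all 11158 genes were called lower and 23.4% higher. The tissues were homogenised in different ways, and their part in this difference cannot be told apart from that of tissue. The count was 22 without liver control 6 and 13 without heart control 1, heart control 6 or liver control 5. All 6 cytokinesis genes were among the 17, ANLN with the largest difference (-5.73, SE 0.75, edgeR adjusted p 4.48e-07). ANLN had 0 to 0.50 CPM in control livers and 8.22 to 17.6 CPM in control hearts on this scale. None of the 3 condensin and chromosome genes were among them, although SMC4 was close at -0.98 (edgeR adjusted p 0.0305). In Sal-exposed birds 12 genes were called lower in liver than in heart and 4 higher, where 22.8% of all genes were called lower and 22.9% higher. With library size alone as the scaling 6 were called lower and 7 higher. DLGAP5 had the largest difference below 0 (-3.20, SE 0.48, edgeR adjusted p 3.51e-06), with 0.186 to 2.70 CPM in Sal-exposed livers and 6.94 to 17.0 CPM in Sal-exposed hearts. Its counts may include those of LGALS3, whose model lies within that of DLGAP5. The genes called higher in liver were KIF18A (3.39, edgeR adjusted p 0.000204), KIF4A (2.05, edgeR adjusted p 0.000222), KIF15 (1.34, edgeR adjusted p 0.0190) and CCNA2, which had 0 to 0.904 CPM in Sal-exposed livers and no count in the hearts. KIF4A had 0.694 to 1.92 CPM in Sal-exposed livers and 0.0350 to 0.504 CPM in Sal-exposed hearts, so that these groups did not overlap.

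**Figure D4:**
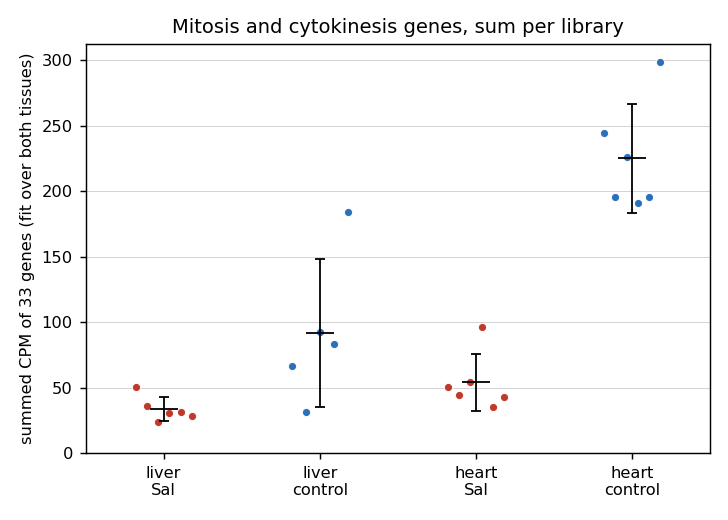
Summed CPM of the 33 genes in each library on a scale common to the tissues, with 1 point per library and the mean with its SD in black, for 6 Sal-exposed livers, 5 control livers, 6 Sal-exposed hearts and 6 control hearts. The control hearts lie at 190.9 CPM and above, while the highest library of the other groups, liver control 6, lies at 184 CPM.

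The genes were set against lists of neighbouring functions. In heart edgeR called 0.896% of all genes tested lower. Of 35 other mitotic genes 14 were called lower there, with a median log2 fold change of -1.25. They included the kinase PLK1 (-2.18, edgeR adjusted p 0.00650), the kinetochore genes KNL1 (-2.33), CENPL (-2.38) and SPC25 (-1.62), INCENP (-1.97), which anchors the Aurora B kinase, the motor KIF2C (-2.43), CEP55 (-2.82) of the midbody and the condensin II subunits NCAPD3 (-2.19) and NCAPH2 (-1.15). Of the 10 listed entries found under unnamed rows, which belong to these 35, 4 were called lower (CDC20, KIF2C, PLK1 and SPC25) and the median of the 10 was -1.48. The other 6 were AURKA (-0.62), BUB1 (-1.997), CKAP2L (-0.29), NCAPH (-0.55), NUSAP1 (-1.74) and PRC1 (-1.35), with edgeR adjusted p of 0.0603 to 0.469. Of 37 DNA replication genes 9 were called lower, with a median of -0.52, among them DNA2 (-2.79), RRM2 (-2.41), UHRF1 (-2.13) and MCM3 (-1.81). Of 22 tubulin and centrosome genes 3 were called lower (CEP290, CNTRL and CEP135), with a median of -0.31. Of 24 genes of G1 and cell cycle control 1 was called lower (MYBL1, -2.37), with a median of -0.12. Of 21 cohesin genes and interphase kinesins edgeR called 0, with 12 lower at an unadjusted p under 0.05, DESeq2 called 1 and limma-voom 4, and the median was -0.54. The median of the mitosis and cytokinesis genes, -2.27, lay below those of all 5 lists. It was -2.46 for those entered by identifier and -1.72 for those entered by symbol. The genes were chosen with earlier results of these birds known, so this order is a description. No list had a gene called higher in heart by edgeR, DESeq2 or limma-voom, and 2 genes, both of G1 and cell cycle control, were higher at an unadjusted p under 0.05.

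In liver edgeR called 3.08% of all genes tested lower and 5.24% higher. A single call in a list of 21 to 30 genes is close to these shares. The other mitotic genes had 1 of 30 called lower in liver (NUSAP1, a microtubule bundling protein, -1.70, edgeR adjusted p 0.0267). Another, CKAP5, a microtubule polymerase, was called higher (2.07, edgeR adjusted p 0.0473), and the median of the 30 was -0.59. The 10 listed entries among them had 1 called lower, NUSAP1, and a median of -0.58. Of 33 DNA replication genes edgeR called 0, with 3 lower and 1 higher at an unadjusted p under 0.05 and 0 called by DESeq2 or limma-voom, and the median was -0.22. RBL2, a pocket protein of resting cells, was the 1 of 22 genes of G1 and cell cycle control that was called, higher at 1.12 (edgeR adjusted p 0.0265). PDS5B, a cohesin regulator, was the 1 of 21 cohesin genes and interphase kinesins, higher at 1.45 (edgeR adjusted p 0.0283). None of 22 tubulin and centrosome genes was called by edgeR, with 2 lower and 4 higher at an unadjusted p under 0.05. DESeq2 called 1 of them lower and limma-voom 1 higher. With surrogate variables DESeq2 called 5 DNA replication genes higher, and 4 tubulin and centrosome genes higher and 1 lower. It also called 3 genes of G1 and cell cycle control and 3 cohesin genes or interphase kinesins higher. The other mitotic genes had 2 called in each direction. Under that setting 2435 of all 10269 genes were called, 2054 of them higher.

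**Figure D5:**
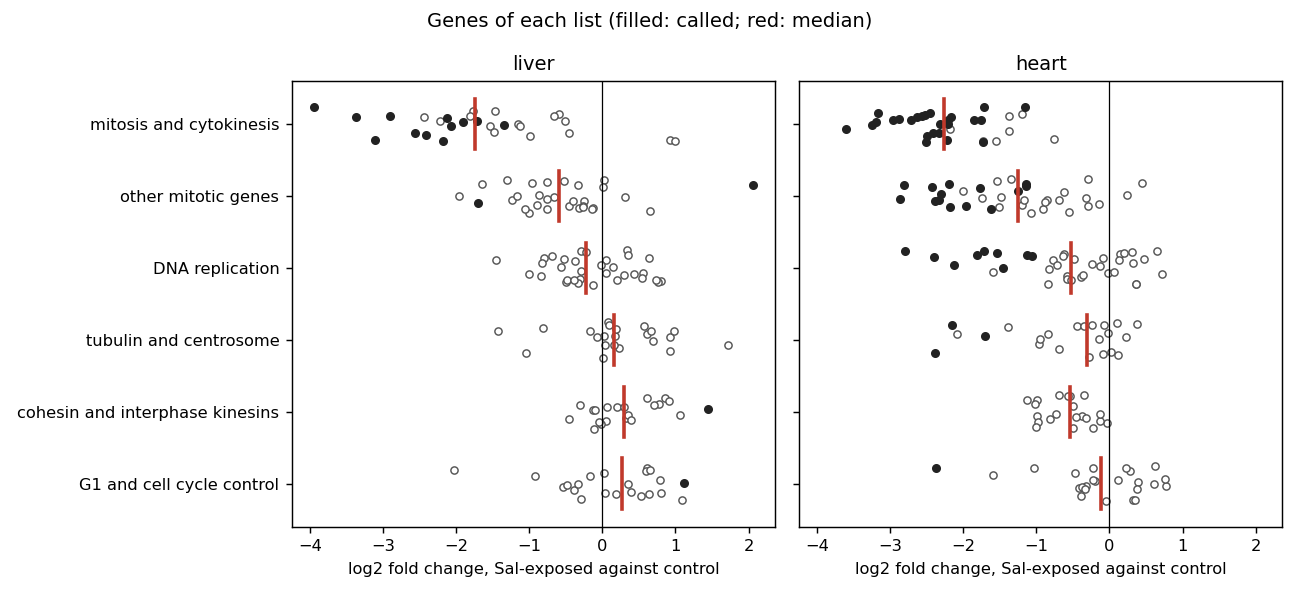
Log2 fold changes of Sal-exposed against control birds for the mitosis and cytokinesis genes and 5 other lists, in liver on the left and heart on the right, with 1 point per gene, filled where called, and a red line at the median. The vertical position within a list has no meaning, and in heart the medians run from -2.27 for the mitosis and cytokinesis genes to -0.12 for G1 and cell cycle control. The genes and lists were chosen with earlier results of these birds known.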

How the data were processed

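The authors trimmed reads with fastp and aligned them with STAR to Turkey_5.1 with Ensembl gene models. The deposited values are expected counts per gene from RSEM, made by the authors and all whole numbers. Tool versions, the use of strand and how 11587 genes were selected: not given in the sources used here. Of 36 count columns, 24 matched a sample title and 12 did not and were not used. The deposited tables of the authors' own DESeq2 comparisons (log2 fold changes, p-values) were used only for gene names and positions.

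The members and lists were chosen with earlier results of these data known. Symbols came from the deposited tables (21 genes) or from the protein-coding RefSeq gene of Turkey_5.1 that overlapped at least 50% of both spans (12). No promoter or protein sequence was analysed here.

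Tests used edgeR 4.0.16 in R 4.3.3 with TMM, filterByExpr, robust dispersion and a prior count of 2, over all genes, and SE was derived from the F statistic. Heart had 12 libraries, liver 11 and the fit over both tissues 23. Liver control 3 was left out, as by the authors, and was included in an alternative. All tests were two-sided. DESeq2 1.42.0, sva 3.50.0, limma 3.58.1, other scalings and filters and the library number as a block were alternatives. The scripts were tested on simulated counts. Per-library values are given for the genes with the highest mean level in heart and the largest change in heart and in liver within each role group, and for the RT-qPCR genes. Of the 33 models, 7 overlap another gene model (HMMR, TPX2, CCNB3, RACGAP1, CCNA2, DLGAP5 and CKAP2), whose reads may not be separable.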

Additional observations from a re-analysis of the deposited data

Results flagged for a closer look

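In 9 of 68 combinations of a gene or the sum with a group, 1 library lay far from the others of its group. Independent values of a normal distribution would give about 1 in 20. The combinations share their libraries and the sum contains the genes, so the 9 cannot be set against that rate. Heart Sal 4 was high among the Sal-exposed hearts for the summed level (94.36 CPM), ASPM (2.53 CPM), CENPF (1.85 CPM), DLGAP5 (16.6 CPM) and TOP2A (3.82 CPM), and had 86.9% mitochondrial counts. Heart Sal 1 was high for MAD2L1 (2.26 CPM). Heart control 3 was high for CCNB2 (19.6 CPM) and CDK1 (16.9 CPM). Liver control 6 was high for ASPM (13.6 CPM).

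By the tissue by treatment term of edgeR, 7 genes were called for a change in liver that differed from that in heart. Of these, ANLN, MASTL and KNTC1 did not pass the filter of the liver fit. Their levels in liver were so low in both groups that a fall like that in heart could hardly show. The differences of the log2 fold changes were 3.61 for KIF18A, 3.31 for ANLN, 3.19 for MASTL, 2.95 for KNTC1, 2.13 for TTK, 1.79 for KIF4A and -1.82 for GTSE1.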

How the results depend on the processing

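In heart the 32 genes tested stayed below 0 under every scaling, tool and filter tried, and 25 to 31 were called, apart from the block below. In liver 11 to 15 were called lower under the tools, the other scalings and the filter, but 5 with library size alone and 1 with liver control 3 included. TTK was called higher with limma-voom, and TTK and KIF18A (1.93, adjusted p 0.0262) with DESeq2 and surrogate variables. Library size alone moved the median of all genes to -0.38 in heart and 0.16 in liver, and relative to it the genes had medians of -2.45 and -1.83. With 1 library left out, 21 to 28 genes were called in heart, 4 to 16 in liver, 5 to 9 for the difference between tissues, 13 to 22 for liver against heart in control birds and 13 to 18 in Sal-exposed birds. With liver control 3 included 26 genes were called for liver against heart in control birds. Over all genes, 102 were called in heart, with 97 to 404 under the other tools, scalings and filter, 30 with the replicate block, 287 without the 3 hearts of over 80% mitochondrial counts and 52 (without control 6) to 143 (without Sal 3) with 1 library left out. In liver 854 were called, with 713 to 2435 under the other tools, scalings and filter, 557 with the replicate block, 264 with liver control 3 included and 506 (without Sal 2) to 1261 (without control 2) with 1 library left out. Library size alone put the share of higher calls over all genes at 76.6% in liver (63.0% with TMM) and 93.4% for the difference between tissues (57.5% with TMM). The cause of these differences was not tested.

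Some changes in liver that were not called turned above 0, from -0.51 (PLK4), -0.45 (MAD2L1), -1.15 (NCAPG) and -1.49 (FOXM1). PLK4 was at 0.00262 with the replicate block and 0.25 with DESeq2 and surrogate variables, NCAPG at 0.30 and 0.83 under the same settings and at -1.46 to 0.15 with 1 library left out (0.15 without control 6), MAD2L1 at 0.45 with surrogate variables and 0.00326 with limma-voom, and FOXM1 at 0.29 with surrogate variables. None of these was called. Whether a heart and a liver of the same number came from 1 bird is not in the labels. Their correlations ran from -0.39 to 0.19, and at most 2 of the libraries of any group correlated best with their own number. Weak correlations between 2 organs cannot settle the pairing. Same-numbered Sal-exposed and control hearts are different birds, with correlations from -0.46 to 0.16. With the replicate block 15 genes were called in heart, 2 in liver and 4 for the difference between tissues. Within a tissue this block ties a Sal-exposed library to a control library of the same number, a pairing that no label gives.

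The description of promoter motifs and its alternative window were not run, since no promoter sequence was analysed here. Low counts limit the liver values most, where 5 of the 33 genes did not pass the filter.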
